A study of Mus musculus with 14 samples.

Results

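Ly6c2, Plac8, Vcan, F13a1 and Hp are genes by which classical monocytes are recognised in mice, and their expression was followed here in F4/80-selected cell fractions of mouse mammary tumours. The 5 genes were taken by name, and each was found by its Ensembl identifier as 1 row of the 24556 in the deposited table. Each had a log2 value above 3.32, the filter on low values, in all 14 libraries, so all 5 were among the 11886 genes kept for testing. The tumours had been grown in the fat pad of Balb/c mice from 4T1 cells, a mouse mammary carcinoma line. Before injection the 4T1 cells had been cultured for 5 days either in 5 µM GSK269962A, a small-molecule kinase inhibitor, or in DMSO, its solvent. GSK and DMSO below name that pre-treatment of the tumour cells, and the labels record no drug given to the mice.

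There were 4 GSK day 14, 4 DMSO day 14, 3 GSK day 8 and 3 DMSO day 8 libraries, the day being counted from injection. All 4 groups shared the host strain, the 4T1 line and an isolation with magnetic F4/80 beads over 2 columns in succession. The labels give no age and do not say that each library came from a separate mouse, so every p-value below measures only the spread between these samples. The bead-selected fractions were not pure populations, and within them fewer cells of a type and less RNA per cell cannot be told apart. Adgre1, which encodes F4/80 itself, averaged 10.19 ± 0.11 in GSK day 14 and 9.49 ± 0.40 in DMSO day 14 fractions (SD, n = 4 each), and 9.48 ± 0.50 in GSK day 8 and 9.20 ± 0.18 in DMSO day 8 fractions (SD, n = 3 each). All expression values below are on the deposited log2 scale unless they are called unlogged or summed, and the sequencing depth is unknown because no counts were used. An unlogged mean of a group is its mean log2 value converted back from the log2 scale. Summed levels instead add the unlogged values of the kept list genes in a library. Pairs of libraries from 1 group correlated with r from 0.967 to 0.993. A pair of overlapping ribosomal RNA genes split the libraries unevenly, with the signal on AY036118 in 4 of 4 GSK day 14, 2 of 4 DMSO day 14, 2 of 3 GSK day 8 and 1 of 3 DMSO day 8 libraries.

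Classical monocytes leave the bone marrow through the chemokine receptor Ccr2, enter inflamed tissue and tumours, and there give rise to macrophages, losing surface Ly6C as they mature. Ly6c2 encodes Ly6C2, a small glycolipid-anchored surface protein recognised by Ly6C antibodies. Plac8 encodes a small cysteine-rich intracellular protein of myeloid and other immune cells. Vcan encodes versican, a large secreted chondroitin sulphate proteoglycan that binds hyaluronan. F13a1 encodes the catalytic A subunit of coagulation factor XIII, a transglutaminase that crosslinks fibrin and other matrix proteins, which monocytes and many tissue macrophages also make. Hp encodes haptoglobin, an acute-phase protein that captures free haemoglobin for uptake through the receptor Cd163. None of the 5 is restricted to monocytes: neutrophils also carry Hp, plasmacytoid dendritic cells Plac8, fibroblasts Vcan and platelets factor XIII.

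Ly6c2 has a near-identical neighbour, Ly6c1, and reads from the shared stretches can be assigned to either gene. Their coding sequences, both 393 bases long, were identical at 384 positions (97.7%) and differed at 9, and the longest stretch without a difference was 188 bases. The first 120 coding bases are shown because they hold 6 of the 9 differences, which are in capitals.
Ly6c2: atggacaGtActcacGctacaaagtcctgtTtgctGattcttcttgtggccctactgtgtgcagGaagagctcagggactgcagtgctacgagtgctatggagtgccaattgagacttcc
Ly6c1: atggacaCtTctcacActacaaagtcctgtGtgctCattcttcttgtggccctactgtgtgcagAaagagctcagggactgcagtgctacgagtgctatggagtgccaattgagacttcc
Of the different 31-base words in all annotated Ly6c2 transcripts, 23.7% also occurred in transcripts of another gene, and Ly6c1 alone held 21.4%. In protein-coding Ly6c2 transcripts the shared part was 52.5%. For F13a1 it was 0.582% and for Hp 0.254% over all transcripts, and Plac8 and Vcan shared no such word, so of the 5 genes Ly6c2 shared by far the most sequence.

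Upstream of their starts the neighbours were less alike. The 250 bases before the Ly6c2 start (chr15:75111972-75112221, minus strand) and the Ly6c1 start (chr15:75048838-75049087, minus strand), both from RefSeq on GRCm38.p6, aligned with 57.7% identical columns. They are shown because Ly6c2 held a match to a core motif of the myeloid factor PU.1, GAGGAAGT (in capitals), beginning at position -108 relative to the start, where Ly6c1 held none.
Ly6c2: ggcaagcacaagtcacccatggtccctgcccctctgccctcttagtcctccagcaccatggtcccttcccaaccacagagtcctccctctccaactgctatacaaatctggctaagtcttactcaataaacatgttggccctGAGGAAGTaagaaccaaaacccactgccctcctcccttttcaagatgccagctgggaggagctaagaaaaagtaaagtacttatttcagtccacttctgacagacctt
Ly6c1: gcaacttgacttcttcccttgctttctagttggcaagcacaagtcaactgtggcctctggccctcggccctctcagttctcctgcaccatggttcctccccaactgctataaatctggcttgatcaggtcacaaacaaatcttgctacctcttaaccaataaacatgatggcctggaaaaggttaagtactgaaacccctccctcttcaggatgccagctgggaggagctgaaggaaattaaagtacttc
Both strands were searched for GAGGAAGT, for TTGCNNAA (a C/EBP motif) and for an interferon response element. Among the same windows of Plac8, Vcan and F13a1 none of the 3 was found. The Ly6c2 match was the only one in the windows of Ly6c2, Ly6c1, Plac8, Vcan and F13a1. No window was available for Hp, which was not searched. Of 32851 promoter windows of this length, 2.44% held GAGGAAGT, 9.56% TTGCNNAA and 2.98% the interferon response element. The matches are letters in a window and were not tested as binding sites.

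The 5 genes differed widely in level. Length was taken as all annotated exons of a gene, 2740 bases for Ly6c2 and 6739 for F13a1. Per kilobase of this length, F13a1 had the highest mean over all 14 libraries, 8.23 on the log2 scale. Ly6c2 followed with 7.77. Protein-coding transcripts held fewer different sequence words, 836 for Ly6c2 and 3971 for F13a1, against 2714 and 6706 in all transcripts. The order of Ly6c2 and F13a1 may therefore depend on the length chosen, and protein-coding lengths were not tried. Plac8 had 5.89, Hp 4.62 and Vcan 1.53 on the same per-length scale. F13a1 had a mean deposited value above that of 95.3% of the kept genes, Ly6c2 above 84.1%, Plac8 above 46.8%, Vcan above 29.5% and Hp above 28.5%. Their spread within groups also differed. The within-group SD of Ly6c2 was 0.54, larger than that of 97.6% of kept genes, while those of Vcan (0.30), Hp (0.29), F13a1 (0.28) and Plac8 (0.22) exceeded 74.8%, 73.5%, 69.1% and 41.0%.

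Ly6c2 (ENSMUSG00000022584, chr15:75108158-75111970, minus strand) was the most uneven of the 5 between libraries of the same group. Its values were 8.34, 9.35, 8.51 and 8.85 in GSK day 14 fractions and 9.95, 10.11, 8.55 and 9.37 in DMSO day 14 fractions. On day 8 they were 9.53, 9.01 and 9.41 in GSK and 8.87, 10.01 and 9.21 in DMSO fractions. GSK day 14 libraries 1, 3 and 4 were among the 4 lowest of all 14, but DMSO day 14 library 3 lay among them, so the day 14 groups overlapped, as did those of day 8.

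Plac8 (ENSMUSG00000029322, chr5:100553725-100572245, minus strand) had values of 6.63, 6.81, 6.70 and 7.17 in GSK day 14 and 6.54, 6.57, 6.50 and 6.63 in DMSO day 14 fractions. On day 8 it had 6.12, 6.20 and 6.54 in GSK and 6.70, 6.11 and 6.60 in DMSO fractions. Every GSK day 14 library lay above every DMSO day 14 and every GSK day 8 library, though the lowest GSK day 14 library exceeded the highest DMSO day 14 library only in the third decimal.

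Vcan (ENSMUSG00000021614, chr13:89655312-89742509, minus strand) had values of 4.97, 4.97, 5.23 and 5.21 in GSK day 14 and 5.12, 4.97, 5.27 and 5.80 in DMSO day 14 fractions. On day 8 the values were 5.07, 5.36 and 5.95 in GSK and 5.69, 5.83 and 5.91 in DMSO fractions. The 3 DMSO day 8 libraries were all high and close together, whereas the GSK day 8 libraries spanned nearly the whole range seen for the gene, and no pair of groups was fully apart except GSK day 14 and DMSO day 8, which the design does not compare.

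F13a1 (ENSMUSG00000039109, chr13:36867178-37050244, minus strand) had values of 10.72, 10.87, 10.95 and 11.10 in GSK day 14 and 10.89, 11.07, 11.71 and 11.31 in DMSO day 14 fractions. On day 8 it had 10.46, 10.62 and 11.13 in GSK and 10.72, 11.06 and 11.09 in DMSO fractions. The highest of all 14 was DMSO day 14 library 3, the library that was lowest of its group for Ly6c2, and all groups overlapped.

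Hp (ENSMUSG00000031722, chr8:109575128-109579172, minus strand) had values of 5.46, 5.56, 5.77 and 5.60 in GSK day 14 and 5.94, 4.87, 5.06 and 5.58 in DMSO day 14 fractions. On day 8 it had 4.82, 4.94 and 4.86 in GSK and 5.42, 5.30 and 5.03 in DMSO fractions. The 3 GSK day 8 libraries were low and tightly grouped, below every DMSO day 8 and every GSK day 14 library, while the DMSO day 14 libraries spanned 1.08.

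**Figure D1:**
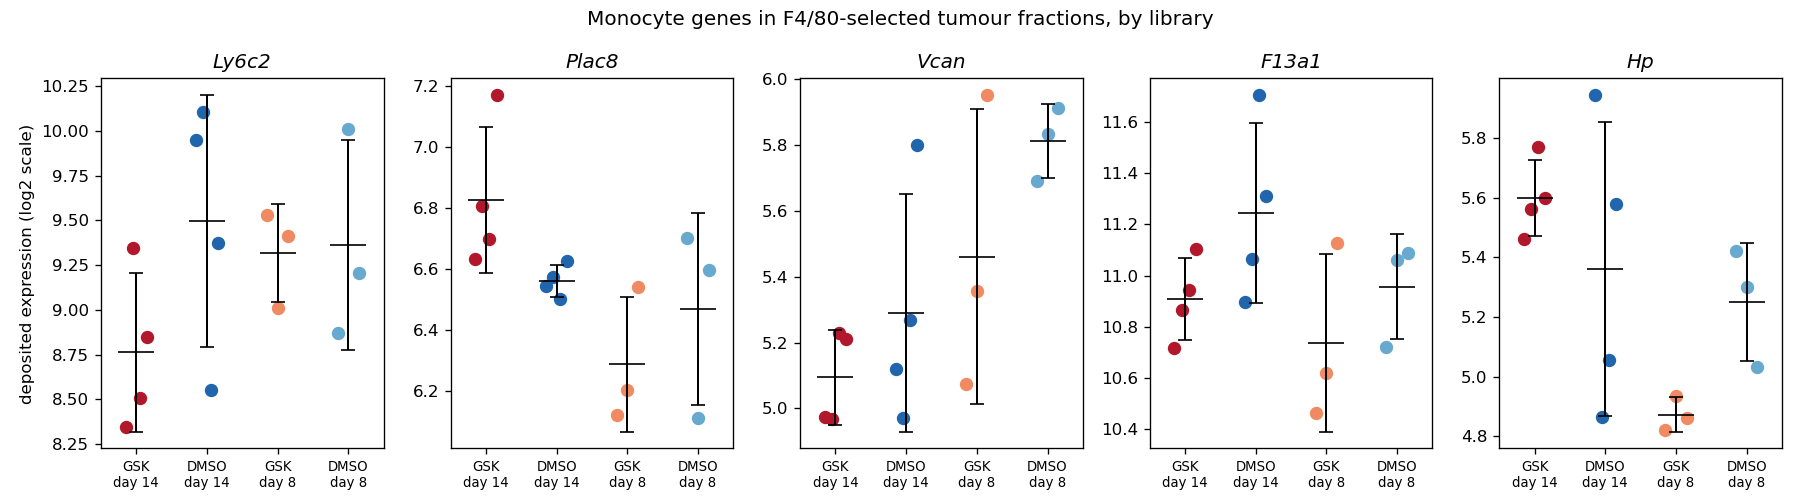
Deposited log2 expression (y axis, a separate range for each gene) of Ly6c2, Plac8, Vcan, F13a1 and Hp in each of the 14 libraries, by group (x axis: GSK day 14, DMSO day 14, GSK day 8, DMSO day 8). Points are libraries, and horizontal lines with bars are group means ± SD (n = 4 on day 14, n = 3 on day 8). The 3 GSK day 8 libraries of Hp lie between 4.82 and 4.94, below those of GSK day 14, which lie between 5.46 and 5.77.

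On day 14, GSK against DMSO bears on whether drug exposure of the injected cells was followed by other levels of these transcripts. Ly6c2 averaged 8.76 ± 0.44 in GSK and 9.50 ± 0.70 in DMSO fractions (SD, n = 4 each), a log2 change of -0.73 (SE 0.31, 95% interval -1.40 to -0.067). F13a1 averaged 10.91 ± 0.16 in GSK and 11.24 ± 0.35 in DMSO fractions, a change of -0.34 (SE 0.18). Vcan averaged 5.09 ± 0.14 in GSK and 5.29 ± 0.36 in DMSO fractions, a change of -0.20 (SE 0.20). The other two had positive changes: Plac8 averaged 6.83 ± 0.24 in GSK and 6.56 ± 0.052 in DMSO fractions (change 0.27, SE 0.16), and Hp averaged 5.60 ± 0.13 in GSK and 5.36 ± 0.49 in DMSO fractions (change 0.24, SE 0.20). None of the 5 passed the threshold, an adjusted p under 0.05 by limma with Benjamini-Hochberg adjustment over all kept genes, while 10.8% of kept genes did (5.1% higher and 5.73% lower in GSK). The adjusted p-values were 0.1425 for Ly6c2, 0.247 for F13a1, 0.314 for Plac8, 0.472 for Hp and 0.570 for Vcan, and 1 of the 5, Ly6c2, had an unadjusted p under 0.05 (0.0330), against 27.3% of kept genes. Plac8 was the 1 gene whose groups did not overlap, as 22% of kept genes did not. Without DMSO day 14 library 3, Ly6c2 passed with a change of -1.05 (adjusted p = 0.0237 by limma), and without any other library it did not.

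On day 8 the same contrast addresses young tumours. All 5 changes were negative in sign, with a median of -0.22 against 0.022 over all kept genes, and none passed by limma. Hp averaged 4.87 ± 0.057 in GSK and 5.25 ± 0.20 in DMSO fractions (SD, n = 3 each), a change of -0.38 (SE 0.23, adjusted p = 0.424), and its groups did not overlap, as was so for 16.2% of kept genes. Vcan averaged 5.46 ± 0.45 in GSK and 5.81 ± 0.11 in DMSO fractions, a change of -0.35 (SE 0.23, adjusted p = 0.466). F13a1 averaged 10.74 ± 0.35 in GSK and 10.96 ± 0.21 in DMSO fractions (change -0.22, adjusted p = 0.641), and Plac8 averaged 6.29 ± 0.22 in GSK and 6.47 ± 0.32 in DMSO fractions (change -0.18, adjusted p = 0.669). Ly6c2 averaged 9.32 ± 0.27 in GSK and 9.36 ± 0.59 in DMSO fractions, a change of -0.046 whose 95% interval ran from -0.81 to 0.72. Among all kept genes 0.194% passed (0.0589% higher and 0.135% lower in GSK), and no member had an unadjusted p under 0.05, against 16.3% of kept genes. The signs of Ly6c2 and Plac8 were not stable. With Gm42418 high, in 1 GSK and 2 DMSO day 8 libraries, Ly6c2 had 0.49. With AY036118 high, in 2 GSK and 1 DMSO day 8 libraries, Plac8 had 0.26.

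Averaged over both days, the GSK minus DMSO change was -0.39 for Ly6c2, -0.28 for F13a1, -0.27 for Vcan, -0.070 for Hp and 0.042 for Plac8. None of the 5 passed by limma, nor had an unadjusted p under 0.05. Of kept genes 14.5% passed (6.73% higher and 7.77% lower in GSK), and 30.6% had an unadjusted p under 0.05. F13a1 came nearest, with an adjusted p of 0.189 (SE 0.14), and all 14 values obtained by leaving out a library lay between -0.38 and -0.20.

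Between day 8 and day 14 in GSK tumours, Hp rose, and it was the only call among the 5 genes in any comparison. Hp averaged 5.60 ± 0.13 in GSK day 14 (n = 4) and 4.87 ± 0.057 in GSK day 8 fractions (n = 3, SD), a log2 change of 0.72 (SE 0.21, 95% interval 0.28 to 1.17) or 1.65-fold, with an adjusted p of 0.0492 by limma. Of all kept genes, 7.01% passed in this comparison, 3.05% higher and 3.95% lower on day 14. The call lies just inside the threshold. It ended when any 1 of the 7 libraries compared was left out, although the change stayed between 0.67 and 0.77 (adjusted p 0.0758 to 0.210), and also on removal of library 4 of DMSO day 14 or library 2 or 3 of DMSO day 8, which enter only through the shared spread.

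Plac8 averaged 6.83 ± 0.24 in GSK day 14 (n = 4) and 6.29 ± 0.22 in GSK day 8 fractions (n = 3, SD), a change of 0.54 (SE 0.18) with an adjusted p of 0.0708 by limma, so it did not pass. It did pass when library 3 of GSK day 8 was removed (0.66, adjusted p = 0.0440 by limma) and when library 2 of DMSO day 8 was (0.54, adjusted p = 0.0494). Hp and Plac8 were the 2 members whose GSK day 14 and GSK day 8 libraries did not overlap, as 30.3% of kept genes did not. Ly6c2 averaged 8.76 ± 0.44 in GSK day 14 and 9.32 ± 0.27 in GSK day 8 fractions, a change of -0.55 (SE 0.34, adjusted p = 0.330). Vcan averaged 5.09 ± 0.14 in GSK day 14 and 5.46 ± 0.45 in GSK day 8 fractions (change -0.37, adjusted p = 0.307), and F13a1 averaged 10.91 ± 0.16 in GSK day 14 and 10.74 ± 0.35 in GSK day 8 fractions (change 0.17, adjusted p = 0.628).

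Between day 8 and day 14 in DMSO tumours none of the 5 passed by limma, and 0.824% of kept genes did (0.303% higher and 0.522% lower on day 14). Vcan averaged 5.29 ± 0.36 in DMSO day 14 (n = 4) and 5.81 ± 0.11 in DMSO day 8 fractions (n = 3, SD), a change of -0.52 (SE 0.21) with an unadjusted p of 0.0263 and an adjusted p of 0.261, and it was the 1 member under 0.05 before adjustment, against 15.4% of kept genes. F13a1 had a change of 0.29 (SE 0.20), Ly6c2 of 0.13 (SE 0.34), Hp of 0.11 (SE 0.21) and Plac8 of 0.091 (SE 0.18). No member had groups that did not overlap, and 10.1% of kept genes had. The comparisons of days and of pre-treatments share libraries, so a member's values in them are not independent.

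Whether the pre-treatment difference itself differed between the days was tested as an interaction. Hp had the largest such difference of the 5 relative to its error, 0.61 (SE 0.30, 95% interval -0.019 to 1.25, unadjusted p = 0.0564, adjusted p = 0.600 by limma). Ly6c2 had -0.69 (SE 0.48, adjusted p = 0.694), Plac8 0.45 (SE 0.25, adjusted p = 0.653), Vcan 0.16 (SE 0.30) and F13a1 -0.12 (SE 0.28). None passed or had an unadjusted p under 0.05, and 1 of the 11886 kept genes (0.00841%) passed (12 on removal of library 1 of GSK day 14), so the Hp call in GSK tumours is not shown to differ from the Hp values in DMSO tumours.

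**Figure D2:**
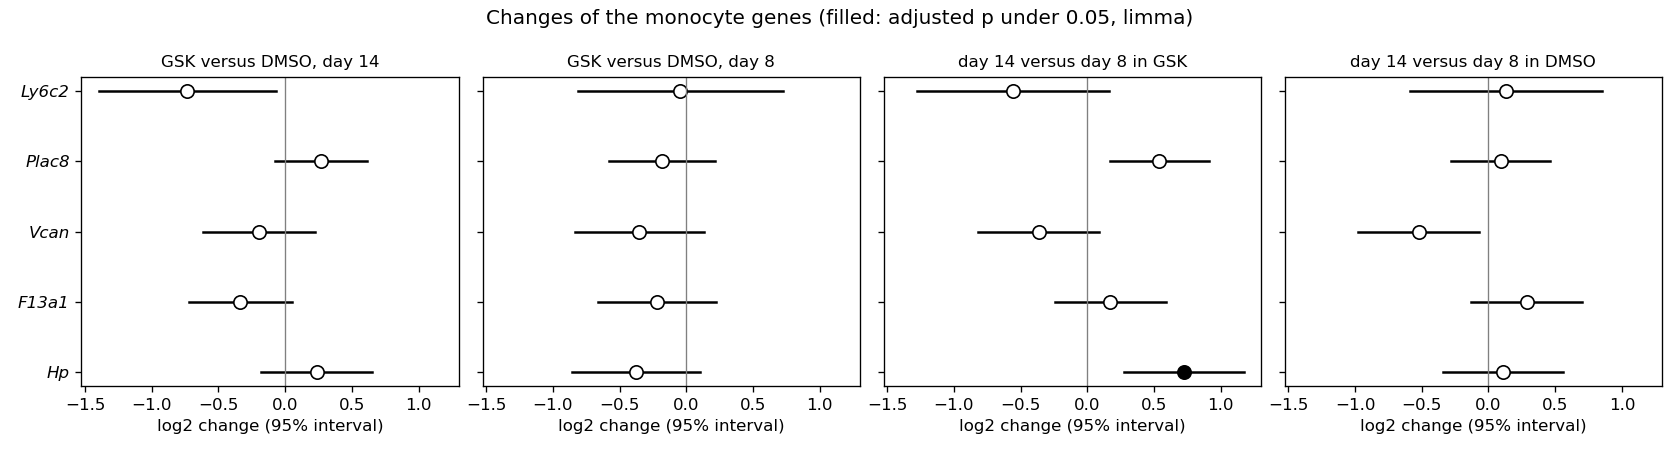
Log2 change (x axis) with its 95% interval for each of the 5 genes (y axis) in the comparisons of GSK with DMSO on day 14 and day 8 and of day 14 with day 8 in GSK and in DMSO tumours. A filled point marks an adjusted p under 0.05 by limma. The 1 filled point is Hp between the days in GSK tumours, at 0.72.

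Markers of other cells moved beside the Hp change. Of the 10 kept of 14 listed 4T1 epithelium markers, 7 fell between GSK day 8 and GSK day 14, with log2 changes of -1.97 for Krt14, -2.95 for Krt18, -1.70 for Cldn4 and -2.28 for Krt7 (adjusted p 0.000499 to 0.00493 by limma). Of all kept genes 3.95% fell in that comparison. Without GSK day 8 library 1 the count of 7 was 4. Their summed unlogged level ranged from 1314 to 1778 in GSK day 14, 1374 to 2190 in DMSO day 14, 1901 to 4021 in GSK day 8 and 2447 to 3088 in DMSO day 8 fractions. Much of that sum was Cdh1, which encodes E-cadherin, with unlogged means of 1280 in GSK day 14 and 1295 in GSK day 8 fractions (log2 change -0.017, adjusted p = 0.966), while Krt18 had unlogged means of 97.2 in GSK day 14 and 752 in GSK day 8 fractions. Epcam, which defines epithelium, had values from 3.39 to 4.60 over the 14 libraries. With the mean of this list as a covariate the Hp change was 0.55 (SE 0.42, adjusted p = 1.00), and 1 of all kept genes passed in place of 833. Of 7 endothelial markers 2 also fell, Pecam1 by 0.71 and Plvap by 1.91 (adjusted p = 0.0260 and 0.0287). The summed level of the 7 ranged from 1071 to 1314 in GSK day 14, 1205 to 1703 in DMSO day 14, 1546 to 2685 in GSK day 8 and 2117 to 2690 in DMSO day 8 fractions. Most of it was Pecam1, with a log2 median of 10.16 over the 14 libraries, where no other of the 7 exceeded 7.76. With the mean of the 7 as a covariate, a setting chosen after the data were seen, the Hp change was 0.87 (adjusted p = 0.509 by limma). No endothelial marker passed on removal of library 1, 2 or 4 of GSK day 14 or library 1 or 2 of GSK day 8, 1 passed on removal of library 3 of GSK day 14, and 4 on removal of library 3 of GSK day 8. The epithelium list mean ranged from 5.15 to 5.28 in GSK day 14 and from 5.98 to 7.34 in GSK day 8 fractions. The endothelial list mean ranged from 5.64 to 5.91 in GSK day 14 and from 5.93 to 6.71 in GSK day 8 fractions. Neither overlapped between the days, so the fits with these covariates can hardly separate the markers from the day. The part of these cells in the Hp change was not tested.

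Hp is also a neutrophil gene. Of 13 listed neutrophil markers 6 were kept, and none passed by limma in any comparison. Between the days in GSK tumours 3 of the 6 had an unadjusted p under 0.05, against 24.9% of kept genes. S100a8 averaged 4.18 ± 0.13 in GSK day 14 and 4.03 ± 0.24 in DMSO day 14 (SD, n = 4 each), and 3.85 ± 0.14 in GSK day 8 and 3.79 ± 0.045 in DMSO day 8 fractions (SD, n = 3 each). Ly6g did not pass the filter on low values, at 2.54 to 2.96, and Elane and Mpo lay at or near the floor of the table. The summed level of the 6 ranged from 1317 to 2483 in GSK day 14, 2191 to 2635 in DMSO day 14, 1536 to 1653 in GSK day 8 and 1239 to 1989 in DMSO day 8 fractions, so the GSK groups overlapped. Most of it was Retnlg, with log2 means of 10.49 in GSK day 14, 11.08 in DMSO day 14, 10.32 in GSK day 8 and 10.11 in DMSO day 8 fractions. With the mean of the list as a covariate the Hp change was 0.72 (adjusted p = 0.0562). Within the libraries with AY036118 high, which are 4 GSK day 14 and 2 GSK day 8 libraries, it was 0.70 (adjusted p = 0.105).

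Haptoglobin works with a receptor and with enzymes that break down haem. Of 13 kept genes of 14 listed for this handling and for control of Hp, 1 passed between the days in GSK tumours: Cd163, the receptor for haptoglobin bound to haemoglobin, fell by 0.88 (SE 0.24, adjusted p = 0.0375 by limma) where Hp rose. Cd163 averaged 10.22 ± 0.30 in GSK day 14, 9.53 ± 0.42 in DMSO day 14, 11.10 ± 0.40 in GSK day 8 and 11.31 ± 0.27 in DMSO day 8 fractions (SD, n = 4 on day 14 and n = 3 on day 8). It also fell by 1.78 in DMSO tumours (adjusted p = 0.00345). Between GSK and DMSO on day 14, 4 of the 13 passed, against 10.8% of kept genes. Cebpb, a transcription factor of the acute-phase response, fell by 1.14 (adjusted p = 0.00271 by limma), and Lrp1, a receptor for haem bound to haemopexin, fell by 0.58. The ferritin light chain gene Ftl1 fell by 0.56, and the ferritin heavy chain gene Fth1 rose by 1.01. On day 8 none of the 13 passed, with 3 under an unadjusted p of 0.05, against 16.3% of kept genes. The median changes of the 13 were 0.070 on day 14 and -0.20 on day 8, beside 0.018 and 0.022 over all kept genes. The day 14 count was 2 on removal of library 3 or 4 of GSK or library 2 or 4 of DMSO day 14 and with the ribosomal RNA split as covariate, and Cd163 lost its call in GSK tumours on removal of library 1, 2 or 4 of day 14 or library 2 or 3 of day 8.

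The Ly6 genes lie in a cluster on chromosome 15, and 4 relatives of Ly6c2 were kept of 11 listed: Ly6a (Sca-1), Ly6c1, Ly6e and Ly6i. On day 14 the changes of Ly6a, Ly6i and Ly6e between GSK and DMSO were -0.73, -0.71 and -0.61, close in size to the -0.73 of Ly6c2, and that of Ly6c1 was 0.12. Their adjusted p-values by limma were 0.0691, 0.107 and 0.0658 for Ly6a, Ly6i and Ly6e and 0.899 for Ly6c1, so none passed. Before adjustment 3 of the 4 had a p under 0.05, against 27.3% of kept genes. The count of those that passed was 3 once DMSO day 14 library 3 was removed, and 1 once GSK day 8 library 1 was. Ly6a averaged 9.86 ± 0.19 in GSK and 10.60 ± 0.66 in DMSO day 14 fractions, Ly6e 11.48 ± 0.13 in GSK and 12.09 ± 0.46 in DMSO, and Ly6i 6.19 ± 0.16 in GSK and 6.90 ± 0.69 in DMSO (SD, n = 4 each). In all 3, as in Ly6c2, the DMSO libraries were spread more widely than the GSK libraries.

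Over the 14 libraries Ly6c2 was correlated with Ly6e (Pearson r = 0.74, Spearman rho = 0.84, permutation p adjusted over 4 relations 0.00744 and 0.00124), with Ly6i (r = 0.72, rho = 0.78, permutation p adjusted 0.00744 and 0.00304) and with Ly6a (r = 0.64, rho = 0.64, permutation p adjusted 0.0176 and 0.0215). The raw permutation p-values for r were 0.00223, 0.00372 and 0.0132. Without the 2 libraries farthest from the Ly6c2 median, r was 0.67 for Ly6e, 0.55 for Ly6i and 0.53 for Ly6a. Taken as deviations from group means, r was 0.83, 0.61 and 0.74, and within the 9 libraries with AY036118 high it was 0.66, 0.78 and 0.55, in the same order. With Ly6c1, the near-copy, r was 0.20 and rho 0.13 (permutation p adjusted 0.485 and 0.648). Ly6c2 shared no 31-base word with Ly6e, 0.921% of its words with Ly6i, 3.1% with Ly6a and 21.4% with Ly6c1. How the counting assigned reads between these genes was not tested.

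Ly6c1, which endothelial cells express, fell by 1.69 between the days in GSK tumours (SE 0.47, adjusted p = 0.0403 by limma), with 5.53 ± 0.55 in GSK day 14 (n = 4) and 7.22 ± 0.70 in GSK day 8 fractions (n = 3, SD). It averaged 5.41 ± 0.53 in DMSO day 14 and 6.35 ± 1.22 in DMSO day 8 fractions, a change of -0.94 (adjusted p = 0.348). The call in GSK tumours ended when any library compared was left out other than GSK day 8 library 3, and also without DMSO day 14 library 4.

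**Figure D3:**
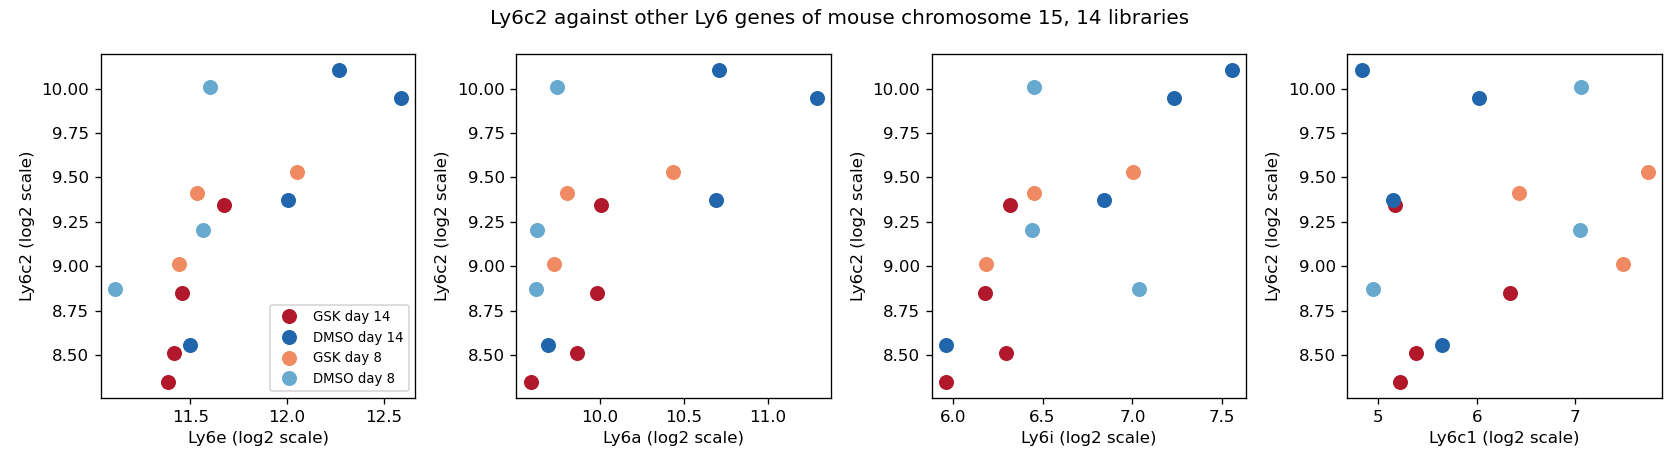
Deposited log2 value of Ly6c2 (y axis) against those of Ly6e, Ly6a, Ly6i and Ly6c1 (x axes) in the 14 libraries, coloured by group. Ly6c2 follows Ly6e (r = 0.74) and Ly6i (r = 0.72) across libraries of all groups and does not follow Ly6c1 (r = 0.20).

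Versican is held in the matrix with hyaluronan and is cut by Adamts proteases. Of 19 genes listed as its partners and proteases 7 were kept. Tlr2, a receptor that versican can engage, rose in GSK against DMSO on day 14 by 0.53 (adjusted p = 0.0476 by limma), between the days in GSK tumours by 0.92 (adjusted p = 0.00995) and between the days in DMSO tumours by 0.80 (adjusted p = 0.0428). It averaged 9.66 ± 0.16 in GSK day 14, 9.13 ± 0.28 in DMSO day 14, 8.75 ± 0.34 in GSK day 8 and 8.33 ± 0.051 in DMSO day 8 fractions (SD, n = 4 on day 14 and n = 3 on day 8). Between the days in GSK tumours the versican-cleaving protease Adamts4 fell by 1.15 (adjusted p = 0.0153), while Vcan, at -0.37, did not pass. Has2, a hyaluronan synthase, had values of 2.60 to 2.69 in GSK day 14, 2.61 to 2.74 in DMSO day 14, 2.99 to 3.68 in GSK day 8 and 2.94 to 3.38 in DMSO day 8 fractions. It passed the filter on low values only through day 8 libraries, so its test between the days (-0.73, adjusted p = 0.0110) supports nothing here. The Tlr2 and Adamts4 calls in GSK tumours ended without GSK day 8 library 1, and the Tlr2 call on day 14 ended on removal of any 1 of the 4 GSK libraries, of DMSO library 1, 2 or 4, or of library 2 or 3 of either day 8 group. In DMSO tumours the Tlr2 call ended on removal of library 2 or 3 of either day, and also of library 2 of GSK day 8 or any library of GSK day 14.

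Fibroblasts also make versican, and their markers were low. Of 8 listed, 5 were kept, and none passed by limma in any comparison of 2 groups. In DMSO tumours between the days, where Vcan had its change of -0.52, 3 of the 5 had an unadjusted p under 0.05, against 15.4% of kept genes. The median change of the 5 markers was -0.37. Their summed level ranged from 118 to 184 in GSK day 14, 114 to 144 in DMSO day 14, 144 to 181 in GSK day 8 and 157 to 184 in DMSO day 8 fractions. The part of fibroblasts in the Vcan values was not tested.

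Plasmacytoid dendritic cells carry Plac8, and 4 of 6 listed markers of theirs were kept. Of the 4, 2 passed between the days in GSK tumours, against 7.01% of kept genes. Between the days in GSK tumours, where Plac8 had its change of 0.54, Lair1, an inhibitory receptor also found on macrophages, rose by 0.54 (adjusted p = 0.0312 by limma), and Siglech, a defining lectin of these cells, fell by 0.54 (adjusted p = 0.0455). The summed level ranged from 819 to 978 in GSK day 14, 791 to 1033 in DMSO day 14, 564 to 712 in GSK day 8 and 593 to 668 in DMSO day 8 fractions. Nearly all of that sum was Lair1, with unlogged means of 872 in GSK day 14, 847 in DMSO day 14, 600 in GSK day 8 and 602 in DMSO day 8 fractions, while Siglech, close to the filter on low values, had unlogged means of 9.62 in GSK day 14, 11.1 in DMSO day 14, 14.0 in GSK day 8 and 10.9 in DMSO day 8 fractions. The count of 2 dropped to 0 on removal of library 1, 2 or 4 of GSK day 14 or library 1 or 2 of GSK day 8, and to 1 on removal of library 3 of either group or of library 2 of DMSO day 14. The part of these cells in the Plac8 values was not tested.

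Of 13 listed factor XIII partners and transglutaminases 6 were kept, and none passed by limma in any comparison. Between GSK and DMSO on day 14 1 of the 6 had an unadjusted p under 0.05, against 27.3% of kept genes. The median change of the 6 was 0.23 beside 0.018 over all kept genes, while F13a1 had -0.34. Fn1, which encodes fibronectin, a substrate that factor XIII crosslinks, averaged 13.62 ± 0.058 in GSK and 13.33 ± 0.30 in DMSO day 14 fractions (SD, n = 4 each; change 0.29, adjusted p = 0.256). Pf4, a platelet gene, had a change of 0.34 on day 14 (adjusted p = 0.315), and none of 4 kept platelet markers passed there, with 1 under an unadjusted p of 0.05. Their summed level ranged from 4285 to 5227 in GSK day 14 and 2288 to 4875 in DMSO day 14 fractions, and nearly all of it was Pf4, with unlogged means of 4489 in GSK and 3554 in DMSO fractions. Of the other kept markers, Itga2b had unlogged means of 18.0 in GSK and 21.1 in DMSO fractions, and Ppbp, which was not kept, lay at 1.02 to 1.26 on the log2 scale in all libraries. The part of platelets in the F13a1 values was not tested.

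A list of 15 other classical monocyte genes was set beside the 5, and all 15 were kept. On day 14, 3 of the 15 rose in GSK against DMSO and 1 fell, where 5.1% of kept genes rose and 5.73% fell. Their median change was 0.26, beside 0.018 over all kept genes and -0.20 over the 5. Chil3, a chitinase-like lectin, rose by 1.72 (adjusted p = 0.00741 by limma), with 8.00 ± 0.53 in GSK and 6.28 ± 0.82 in DMSO fractions (SD, n = 4 each). Mgst1, a microsomal glutathione transferase, rose by 1.24 (adjusted p = 0.0115), and Tgfbi, a matrix protein induced by TGF-beta, rose by 0.78 (adjusted p = 0.0166). S100a4, a calcium-binding protein, fell by 0.73 (adjusted p = 0.0235). Ccr2 had a change of 0.32 (adjusted p = 0.352). The count of 4 dropped to 1 once GSK day 14 library 4 was removed, to 2 once DMSO day 14 library 2 was removed, and was 2 with the ribosomal RNA split as covariate or within the libraries with AY036118 high.

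In GSK tumours 4 of the 15 rose between day 8 and day 14 and 1 fell, where 3.05% of kept genes rose and 3.95% fell. Their median change was 0.48, beside 0.012 over all kept genes. Chil3 rose by 2.09 (adjusted p = 0.00482 by limma), Mgst1 by 1.61 (adjusted p = 0.00628), Ccr2 by 0.91 (adjusted p = 0.0284) and Klf4, a transcription factor of monocyte differentiation, by 0.63 (adjusted p = 0.0403), and S100a4 fell by 0.94 (adjusted p = 0.0145). Ccr2 averaged 9.82 ± 0.18 in GSK day 14 and 8.91 ± 0.37 in GSK day 8 fractions (SD, n = 4 and n = 3), where Ly6c2 had a change of -0.55. On day 8 and between the days in DMSO tumours none of the 15 passed. Before adjustment 2 and 3 had a p under 0.05, against 16.3% and 15.4% of kept genes. The count of 5 dropped to 2 on removal of library 1 of GSK day 8 or library 4 of GSK day 14. It dropped to 3 on removal of library 2 of GSK day 8 or library 1 or 2 of GSK day 14. With the 4T1 epithelium or the endothelial mean as a covariate it was 0, but those means hardly separate from the day in GSK tumours.

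The states that follow the classical monocyte were read from further lists. Of 10 kept non-classical monocyte genes none passed between GSK and DMSO on either day by limma, and none had an unadjusted p under 0.05. In GSK tumours the days differed for 2 of the 10: Cx3cr1, the fractalkine receptor, rose by 1.15 (adjusted p = 0.0184) and Pou2f2, a transcription factor, rose by 0.67 (adjusted p = 0.0237), but removal of library 1 of GSK day 8, or of library 1 or 4 of GSK day 14, left neither, and removal of library 2 or 3 of GSK day 8 left 1. Of all kept genes 7.01% passed between the days in GSK tumours. Before adjustment 3 of the 10 had a p under 0.05 in GSK tumours (median change 0.24, 6 positive), against 24.9% of kept genes. In DMSO tumours 6 of the 10 had one (median change 0.39, 8 positive), against 15.4% of kept genes. None of the 10 passed in DMSO tumours or in the interaction. Of 16 kept genes of mature tumour macrophages 6 rose and 1 fell in GSK against DMSO on day 14. Among these 7 was Selenop, a selenium carrier, with a change of 1.57 (adjusted p = 0.0201 by limma). Of all kept genes 5.1% rose and 5.73% fell in that comparison. Removal of single libraries lowered that count of 7: to 0 for GSK day 14 library 4 and DMSO day 14 library 2, to 1 for GSK day 14 library 1, to 2 for GSK day 14 library 3 and DMSO day 14 library 4, to 3 for GSK day 8 library 2, and to 4 for GSK day 14 library 2.

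Markers common to macrophages moved beside the monocyte list. Of 10 listed, all kept, 4 rose and 2 fell in GSK against DMSO on day 14 (median change 0.47), where 5.1% of kept genes rose and 5.73% fell. Some of the 10, Adgre1 among them, were also listed as mature tumour macrophage genes, so the counts of both lists share genes. Tyrobp, a signalling adaptor, changed by 0.96 (adjusted p = 0.0193 by limma) and Lyz2, lysozyme, by 0.81 (adjusted p = 0.0285). Of the 2 that fell, Aif1 averaged 13.19 ± 0.17 in GSK and 13.80 ± 0.36 in DMSO day 14 fractions (SD, n = 4 each). In GSK tumours 1 of the 10, Lyz2, rose between day 8 and day 14, by 1.26 (adjusted p = 0.00826), and the median change of 0.48 was as large as that of the 15 monocyte genes. The day 14 count of 6 dropped to 0 on removal of library 4 of GSK or library 2 of DMSO day 14, to 1 on removal of library 1 or 3 of GSK or library 4 of DMSO day 14, to 3 on removal of library 2 of GSK day 14, and was 0 with the ribosomal RNA split as covariate and 1 within the libraries with AY036118 high. In GSK tumours the count of 1 was 3 or 4 on removal of library 3 of GSK day 8 or library 1 or 2 of DMSO day 14. The part of macrophage content in the monocyte list's changes was not tested.

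**Figure D4:**
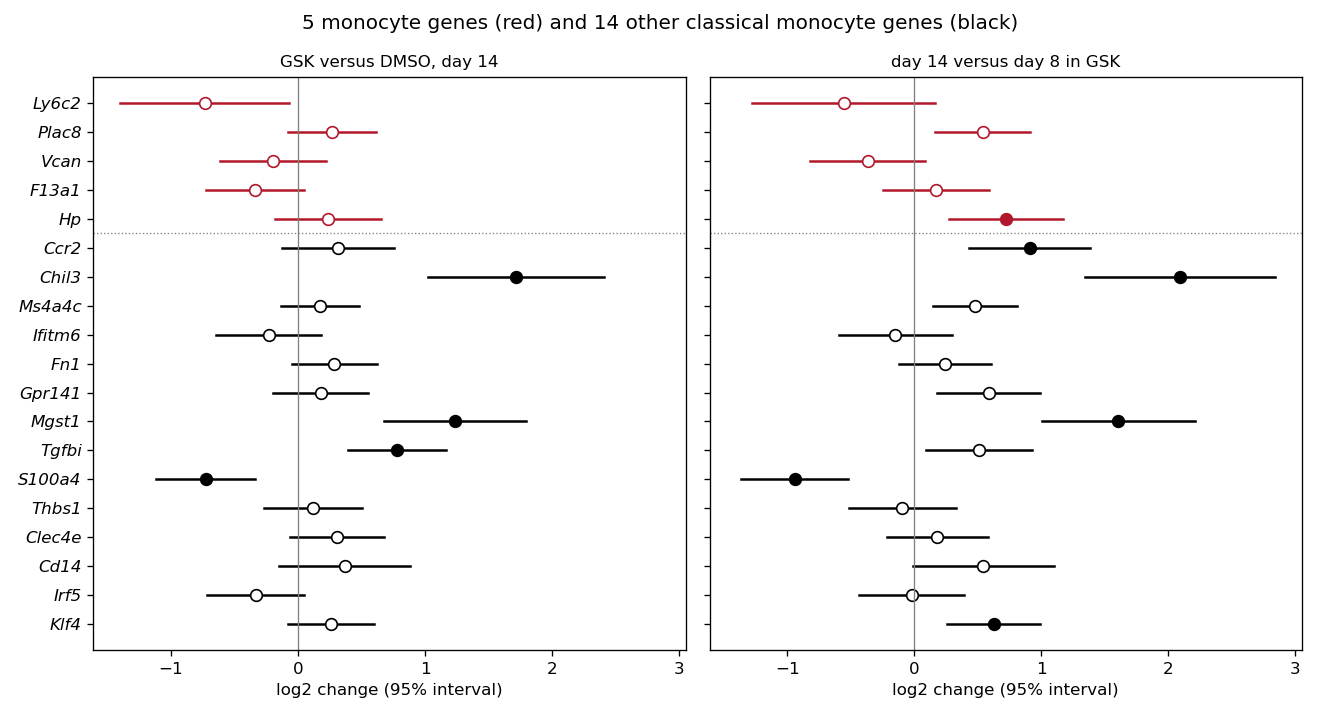
Log2 change (x axis) with its 95% interval of the 5 genes (red) and of 14 of the 15 other listed classical monocyte genes (black) between GSK and DMSO on day 14 and between day 14 and day 8 in GSK tumours. Filled points have an adjusted p under 0.05 by limma: 4 of the 15 and none of the 5 on day 14, and 5 of the 15 and Hp between the days.

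The 5 genes were not shown to vary together as a group. Of the 10 pairs among them, none passed over the 14 libraries after adjustment for the 10 pairs. The closest was Plac8 with Hp (Pearson r = 0.52, Spearman rho = 0.61, permutation p 0.0570 and 0.0231, adjusted 0.570 and 0.231). As deviations from group means r was 0.024 for that pair, and without the 2 libraries farthest from the Plac8 median it was 0.60. Ly6c2 had negative r with Plac8 (-0.38), Hp (-0.17) and F13a1 (-0.055). Within groups Vcan and F13a1 had the highest r of the 10 pairs, 0.67 as deviations from group means, against 0.30 over the values themselves. The r of deviations were not tested. The 5 are therefore given here gene by gene, and no cell type is named from them.

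The genes most like each member over the 14 libraries, among 7445 searched, were other genes than the monocyte markers. For Ly6c2 they included Prpf38b (r = 0.84), Trib1 (0.80), Crybg1 (0.80) and Cisd3 (0.79). For Plac8 they were Rbm10 (r = 0.94), Sf1 (0.89), Snx10 (0.88), Rsu1 (0.86) and Rasgef1b (0.85), the first pair being splicing factors. For Vcan they were Cemip2 (r = 0.83), Mtmr10 (0.82), Tmem140 (0.82), Zbtb34 (0.78) and Ern1 (0.78), where Cemip2 encodes a protein known for hyaluronan breakdown. For F13a1 they were Lyve1 (r = 0.83), Fam117a (0.77), Rfk (0.77), Uhrf1bp1l (0.76) and Rheb (0.76), Lyve1 being a hyaluronan receptor of lymphatic endothelium and of some resident macrophages. For Hp they were Tmem11 (r = 0.84), Sfxn5 (0.82), Tram2 (0.79), B4galt6 (0.78) and Tatdn2 (0.78). These r describe shared libraries and were chosen as the highest of many.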

How the data were processed

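RNA-seq expression was taken from 14 F4/80-selected fractions. Tools listed in the submitters' processing notes are DESeq2 1.12.4, Bowtie2 and RSEM 1.2.29, with mm10 and GRCh38 as builds. The authors deposited log2-scale values, whose transformation is not given in the sources used here. A shrinking transformation would understate changes of weakly expressed genes. Symbols and coordinates came from GENCODE M21 (GRCm38), which matched 24470 of 24556 identifiers.

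Genes with an unlogged value of at least 10 in at least 3 libraries were kept, and 4 group means were fitted to all 14 libraries with limma 3.58.1 in R 4.3.3 and an empirical Bayes trend. Benjamini-Hochberg adjustment ran over the 11886 kept genes in each of 6 comparisons, every test being two-sided. Correlations used 100000 permutations (numpy 2.4.6), and sequences were aligned with Biopython 1.88.

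The 5 genes and the gene lists were chosen with earlier results of these data known. Named were the 5 genes, up to 4 genes past the threshold from each list by smallest p in each comparison, a fixed set of check genes, and the 5 genes most correlated with each member among those with a mean unlogged value of at least 50, leaving out numbered Gm and Rik models and pseudogenes. Of the genes this rule allows, those that bear on the 5 are given, together with a few list genes that did not pass (Ly6a, Ly6e, Ly6i) and marker levels (Aif1, Cdh1, Elane, Itga2b, Mpo, Ppbp, Retnlg) that were chosen after their values were seen. Some genes that the rule names are not reported here. Other settings were a pseudocount of 10, no filter, a minimum of 50, rescaling, covariates, a replicate block and leaving out each library.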

Additional observations from a re-analysis of the deposited data

How the results depend on the processing

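Besides the values reported, 444 changes of the 5 genes were refitted under other settings, and 416 kept their direction and their side of the threshold. The Hp change between the days in GSK tumours lost its call in 10 settings without changing direction. It was 0.57 with a pseudocount of 10, 0.72 without a filter, 0.69 after quantile normalisation, 0.67 with the ribosomal RNA split as covariate, 0.70 in libraries with AY036118 high, 0.55, 0.72 and 0.87 with the 4T1 epithelium, neutrophil and endothelial means as covariates, and 0.70 without library 1 of the GSK and DMSO day 8 groups. With the replicate number as a block it was 0.69 (adjusted p = 0.106 by limma). Deviations of same-numbered libraries from their group means correlated at -0.34 to 0.17. Differently numbered libraries were not set beside them, so whether the numbers pair libraries is not settled. The block changed no other call of the 5 genes. Library quality weights brought in F13a1 for the mean of both days (-0.38) and Plac8 between the days in GSK tumours (0.53).

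Signs turned only among changes that did not pass. On day 8 Plac8 was 0.26 in libraries with AY036118 high and 0.017 without library 1 of the GSK and DMSO day 8 groups, and Ly6c2 was 0.49 in libraries with Gm42418 high. For the mean of both days Plac8 was -0.027 after quantile normalisation and Hp 0.010 with quality weights. Between the days in DMSO tumours Ly6c2 was -0.036 with quality weights, -0.76 with AY036118 high and -0.11 without the first day 8 libraries, Plac8 was -0.018 with the epithelium covariate and -0.050 with Gm42418 high, and Hp was -0.0041 with Gm42418 high. Between the days in GSK tumours F13a1 was -0.21 with the epithelium and -0.052 with the endothelial covariate. For the interaction Ly6c2 was 0.31 with AY036118 high, Vcan -0.055 with the epithelium covariate and F13a1 0.14 with the neutrophil covariate. The cause was not tested. DMSO day 8 had only 1 library with AY036118 high, and GSK day 8 only 1 with Gm42418 high. The restriction to Gm42418, the endothelial covariate and the removal of the first day 8 libraries were chosen after seeing the data.

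Leaving out each library gave 420 values, of which 392 kept direction and call. On day 14 the ranges were -1.05 to -0.53 for Ly6c2, 0.15 to 0.33 for Plac8, -0.30 to -0.025 for Vcan, -0.45 to -0.18 for F13a1 and 0.072 to 0.43 for Hp. On day 8 they were -0.29 to 0.28 for Ly6c2, -0.36 to -0.066 for Plac8, -0.60 to -0.16 for Vcan, -0.42 to -0.082 for F13a1 and -0.49 to -0.29 for Hp. For the mean of both days they were -0.55 to -0.23 for Ly6c2, -0.40 to -0.18 for Vcan, -0.048 to 0.100 for Plac8 and -0.15 to 0.027 for Hp. Between the days in DMSO tumours they were -0.11 to 0.46 for Ly6c2, -0.088 to 0.21 for Plac8, -0.69 to -0.42 for Vcan, 0.13 to 0.40 for F13a1 and -0.084 to 0.27 for Hp, and in GSK tumours -0.75 to -0.41 for Ly6c2, 0.42 to 0.66 for Plac8, -0.56 to -0.12 for Vcan, 0.034 to 0.37 for F13a1 and 0.67 to 0.77 for Hp. For the interaction they were -1.01 to -0.44 for Ly6c2, 0.33 to 0.63 for Plac8, 0.45 to 0.81 for Hp, -0.037 to 0.40 for Vcan and -0.25 to 0.078 for F13a1.

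The number of kept genes called moved by more than 1.5 times with the setting, from 221 to 2373 on day 14 and from 0 to 317 on day 8 between pre-treatments, from 629 to 2820 for their mean, and from 1 to 3523 in GSK and 0 to 305 in DMSO tumours between the days, and from 1 to 12 for the interaction. A fit of only the groups compared gives no mean or interaction, and no GSK day 14 library had Gm42418 high.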
